A study of Mus musculus with 34 samples.

Results

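T cell receptor variable (V) segments are the gene pieces that code for most of the antigen-contacting part of a receptor chain. They were read here as genes whose symbol starts with Trav (alpha chain), Trbv (beta), Trgv (gamma) or Trdv (delta). Of 170 such symbols in a table of 32285 mouse genes, 90 reached 10 UMIs (unique molecular identifiers, counts of captured RNA molecules) over 10 sorted single-cell libraries of mammary tumours. These were 66 of 128 Trav, 20 of 35 Trbv, 1 of 1 Trgv and 3 of 6 Trdv segments. Among the other 80, 58 had no UMI and 22 had fewer than 10. Just inside the limit lay Trbv5 and Trav3-4 with 10 UMIs and Trav6-3 and Trav7d-4 with 11, and just outside lay Trbv23 with 9 and Trav9d-1 with 8. Gamma segments that the gene table names Tcrg-V fall outside the rule.

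In a developing T cell, each receptor chain is made by joining 1 V segment to downstream pieces by recombination, and the junction then differs between cells. All daughters of a cell inherit the same receptor, so a segment that leads many cells of a tumour can mark an expanded clone, or many unrelated clones that chose the same segment. Alpha beta T cells carry CD4 or CD8 co-receptors and recognise peptides on MHC molecules, whereas gamma delta T cells mostly lack both co-receptors. No junction sequence was read in these 3′ libraries, so a segment, or a pair of segments, is not a clone.

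The series carried tumours driven by the Wnt1 oncogene under the mouse mammary tumour virus promoter (MMTV-Wnt1) as transplants in C57BL6j mice. Single-cell libraries came from CD45+ immune cells or CD4/8+ T cells that had been pulled from digested tumours with magnets. The CD45+ sort had 2 untreated libraries and 2 taken 48 h after doxorubicin, a DNA-damaging chemotherapy drug given as 5 consecutive doses of 4 mg/kg. The T cell sort had 1 library per group: untreated, doxorubicin at 48 h, and doxorubicin followed by 3 antibody doses at 72 h intervals with harvest 24 h after the last. The antibodies were IgG control at 400 µg, anti-PD1 at 200 µg with 200 µg IgG, anti-CTLA4 at 200 µg with 200 µg IgG, or anti-PD1 and anti-CTLA4 at 200 µg each (below, the both-antibody library). Both PD1 and CTLA4 restrain T cell activation. The labels do not say how many animals stand behind a library, or whether the 2 CD45+ libraries of a group came from separate animals, so p-values measure the spread between these libraries. With 1 T cell library per group, a treatment and the tumour or animal it was given to cannot be told apart.

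The segments on which the results turn are shown first by the last 90 bases of their V exon, which end where recombination adds the junction. They were read from the GRCm38.p6 genome with GENCODE's gene models, 5′ to 3′ on the coding strand, and the capitals mark the codon of the conserved cysteine that opens the junction. Each of the 8 stretches lies in the V exon that the annotation gives for the gene: Trgv2 at chr13:19336573-19336662 on the minus strand, and, on plus strands, Trav6-7-dv9 at chr14:53710330-53710419, Trav9n-4 at chr14:53294941-53295030, Trdv4 at chr14:54075426-54075515, Trbv29 at chr6:41271792-41271881, Trbv2 at chr6:41047906-41047995, Trbv19 at chr6:41178959-41179048 and Trbv12-2 at chr6:41119275-41119364.
Trav6-7-dv9: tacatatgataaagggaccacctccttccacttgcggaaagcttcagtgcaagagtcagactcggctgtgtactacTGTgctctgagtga
Trav9n-4: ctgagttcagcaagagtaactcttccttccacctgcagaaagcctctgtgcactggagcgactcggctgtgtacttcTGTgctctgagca
Trbv29: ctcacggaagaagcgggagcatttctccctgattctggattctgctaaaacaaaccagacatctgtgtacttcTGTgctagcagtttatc
Trbv2: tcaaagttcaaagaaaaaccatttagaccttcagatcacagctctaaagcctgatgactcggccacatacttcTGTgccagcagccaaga
Trbv19: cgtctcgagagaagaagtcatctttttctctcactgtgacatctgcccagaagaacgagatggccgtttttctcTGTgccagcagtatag
Trbv12-2: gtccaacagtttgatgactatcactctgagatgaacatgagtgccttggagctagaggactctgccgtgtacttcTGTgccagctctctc
Trgv2: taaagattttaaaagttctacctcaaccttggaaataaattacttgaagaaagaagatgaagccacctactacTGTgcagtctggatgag
Trdv4: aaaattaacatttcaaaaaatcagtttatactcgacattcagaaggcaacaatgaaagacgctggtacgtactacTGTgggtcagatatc

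Similar segments can share reads, and the mouse alpha locus holds near copies of whole segment blocks. Trav16, Trav16n and Trav16d-dv11 are shown for that reason, as the last 150 bases of the V exon with the 4 positions at which the 3 differ in capitals. They lie on the plus strand at chr14:53743556-53743705, chr14:53351472-53351621 and chr14:53047672-53047821.
Trav16: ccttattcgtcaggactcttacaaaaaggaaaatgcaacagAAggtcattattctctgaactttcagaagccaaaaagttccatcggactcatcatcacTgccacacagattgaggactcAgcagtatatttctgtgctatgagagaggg
Trav16n: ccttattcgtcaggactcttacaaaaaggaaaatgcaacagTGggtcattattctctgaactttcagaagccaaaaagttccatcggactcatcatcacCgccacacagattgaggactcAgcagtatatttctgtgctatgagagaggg
Trav16d-dv11: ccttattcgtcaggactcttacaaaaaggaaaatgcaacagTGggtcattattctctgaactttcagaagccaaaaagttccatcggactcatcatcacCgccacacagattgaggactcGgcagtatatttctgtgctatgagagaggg
Over 301 aligned bases, Trav16 and Trav16n differed at 4 (98.7% identity), Trav16 and Trav16d-dv11 at 5 (98.3%) and Trav16n and Trav16d-dv11 at 3 (99.0%). They had 1489, 1201 and 92 UMIs. A split of reads among these 3 genes is therefore uncertain. Cutting every V exon into overlapping 90-base windows, 41 of the 62 Trav segments outside the rule had each window present in another V segment too, against 0 of the 66 members. Some windows were shared in 47 of the 66 Trav members, with a median of 15.5% of windows over all 66, and no Trbv segment shared any. Trav6-7-dv9, with 1523 UMIs, is 97.9% identical to Trav6d-7 and to Trav6n-7, which had 1 and 0 UMIs. Trav9n-4, with 706 UMIs, is 96.6% identical to Trav9-4, with 51.

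Cells with at least 2 UMIs of Cd3d, Cd3e and Cd3g together, the invariant chains of the receptor complex, were taken as T cells. There were 21817, from 134 to 958 in the CD45+ libraries and from 2735 to 4593 in the T cell libraries, with a median of 6121 to 17016 UMIs per cell. They held 19470 V segment UMIs: 8718 Trav, 4090 Trbv, 6521 Trgv and 141 Trdv. A Trav UMI was found in 12.3 to 50.9% of them, a Trbv UMI in 9.42 to 25.3% and a Trgv2 UMI in 11.5 to 26.3%. In 8251 myeloid marker-positive cells without Cd3 RNA, which should lack these segments, Trav was found in 0.121%, Trgv2 in 0.0242% and Trbv in 0.0121%; their median depth per library was 2658 to 11405 UMIs. Myeloid marker RNA within the T cells ranged from 0.767 to 66.1 UMIs per 10,000 and was 45.3 in CD45+ untreated 2. That library also had 320 CD8 cells against 42 CD4 cells.

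A cell was assigned to the Trav and the Trbv segment with the most UMIs, and ties were left out. This gave 4285 Trav calls, 3193 Trbv calls and 870 cells with both. Shares below are percentages of the cells called for the chain in a library, with exact Clopper-Pearson intervals at 95% confidence that cover counting error only. How well 3′ reads reach each V segment was not measured, so a share is compared for 1 segment between libraries and not between segments.

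Among alpha segments, Trav6-7-dv9 and Trav9n-4 led far more cells in the anti-CTLA4 library than in most others. Trav6-7-dv9 led 3.04% of called cells in the untreated T cell library, 12.5% at 48 h after doxorubicin, 4.40% with IgG, 5.97% with anti-PD1, 31.7% (28.5 to 35.1) with anti-CTLA4 and 26% (22.99 to 29.2) with both antibodies. The anti-CTLA4 and both-antibody libraries stood above the other 4 with no overlap of intervals. In the CD45+ libraries its share was 7.65% and 0.837% untreated and 7.27% and 3.80% after doxorubicin. Trav9n-4 led 20.2% (17.5 to 23.1) with anti-CTLA4, 17.9 times the median of the other 5 T cell libraries, which ran from 0.489 to 3.04%. Unlike Trav6-7-dv9 it was low in the both-antibody library, at 1.12%.

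The near-identical Trav16n and Trav16 led different libraries. Trav16n led 10.1% in the untreated T cell library, 17.9% at 48 h, 31.8% (28.1 to 35.6) with IgG, 7.52% with anti-PD1, 4.31% with anti-CTLA4 and 9.12% with both. Among the CD45+ libraries it reached 38.2% (25.4 to 52.3) in doxorubicin 1, whereas doxorubicin 2 had 2.53% and the untreated pair 9.69% and 4.60%. Trav16 led 61.1% (54.6 to 67.3) in CD45+ untreated 2 and 9.18, 1.82 and 11.4% in untreated 1, doxorubicin 1 and doxorubicin 2. Its T cell library shares were 16.0, 9.39, 8.47, 13.5, 5.54 and 13.9% in the order above. Without the 247 of 501 T cells of CD45+ untreated 2 that held myeloid or epithelial marker RNA, Trav16 led 53.1%.

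Smaller groups of cells stood apart in single libraries. Trav6-2 led 4.56% with IgG, where 28 cells held it, 12.4 times the median of the other T cell libraries, and between 0.125 and 0.552% in those. Trav4-4-dv10 led 4.87% with anti-PD1, 3.78 times that median, and 16.5% in CD45+ doxorubicin 2, a share that rests on 13 of 79 cells. Trav13-1 led 12.97% in CD45+ untreated 2 and 6.88% in the untreated T cell library, against 1.48 to 3.87% in the 5 treated T cell libraries. Trav3-3 ranged from 3.20 to 10.4% over the T cell libraries, highest with IgG. Trav14d-3-dv8 was at 4.25% in the untreated T cell library, 2.66 times the median of the others, and Trav5-4 at 3.87% in the 48 h library, 2.38 times.

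Among beta segments, Trbv29 was higher in the 3 T cell libraries that had received a checkpoint antibody, and Trbv19 was highest with IgG. Trbv29 led 5.35% untreated, 2.64% at 48 h and 3.39% with IgG, then 17.5% (13.5 to 22.0) with anti-PD1, 23.1% (20.01 to 26.5) with anti-CTLA4 and 15.4% (12.7 to 18.3) with both. No interval of the first group reached one of the second. Trbv2 led 24.9% with anti-CTLA4 and 30.1% with both, against 5.97, 13.2, 3.39 and 8.43% in the untreated, 48 h, IgG and anti-PD1 libraries. In the CD45+ libraries Trbv2 was at 15.4 and 2.86% untreated and 4.76 and 0% after doxorubicin, the latter from 0 of 49 cells (exact interval up to 7.25%).

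Trbv19 led 33.3% (28.9 to 37.9) with IgG and 10.4 to 13.2% in the other T cell libraries. In the CD45+ libraries it led 13.5 and 4.29% untreated, but 42.9% (21.8 to 65.98) and 38.8% (25.2 to 53.8) after doxorubicin, from 9 of 21 and 19 of 49 cells. Trbv12-2 was highest in CD45+ untreated 2 at 34.3%, where Trbv20 followed at 25.7%, and ranged from 6.82 to 14.5% in the T cell libraries. Trbv13-1 led 13.4% at 48 h, 3.95 times the median of the other 5, and Trbv1 led 8.81% untreated and 8.37% at 48 h against 1.48 to 3.01% with the antibodies. Trbv12-1 led 11.1% with IgG and 1.33 to 8.15% in the other T cell libraries. Trbv3 and Trbv13-2, also among the 6 leading beta segments, ranged over the T cell libraries from 3.86 to 8.18% and from 2.71 to 8.16%.

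**Figure D1:**
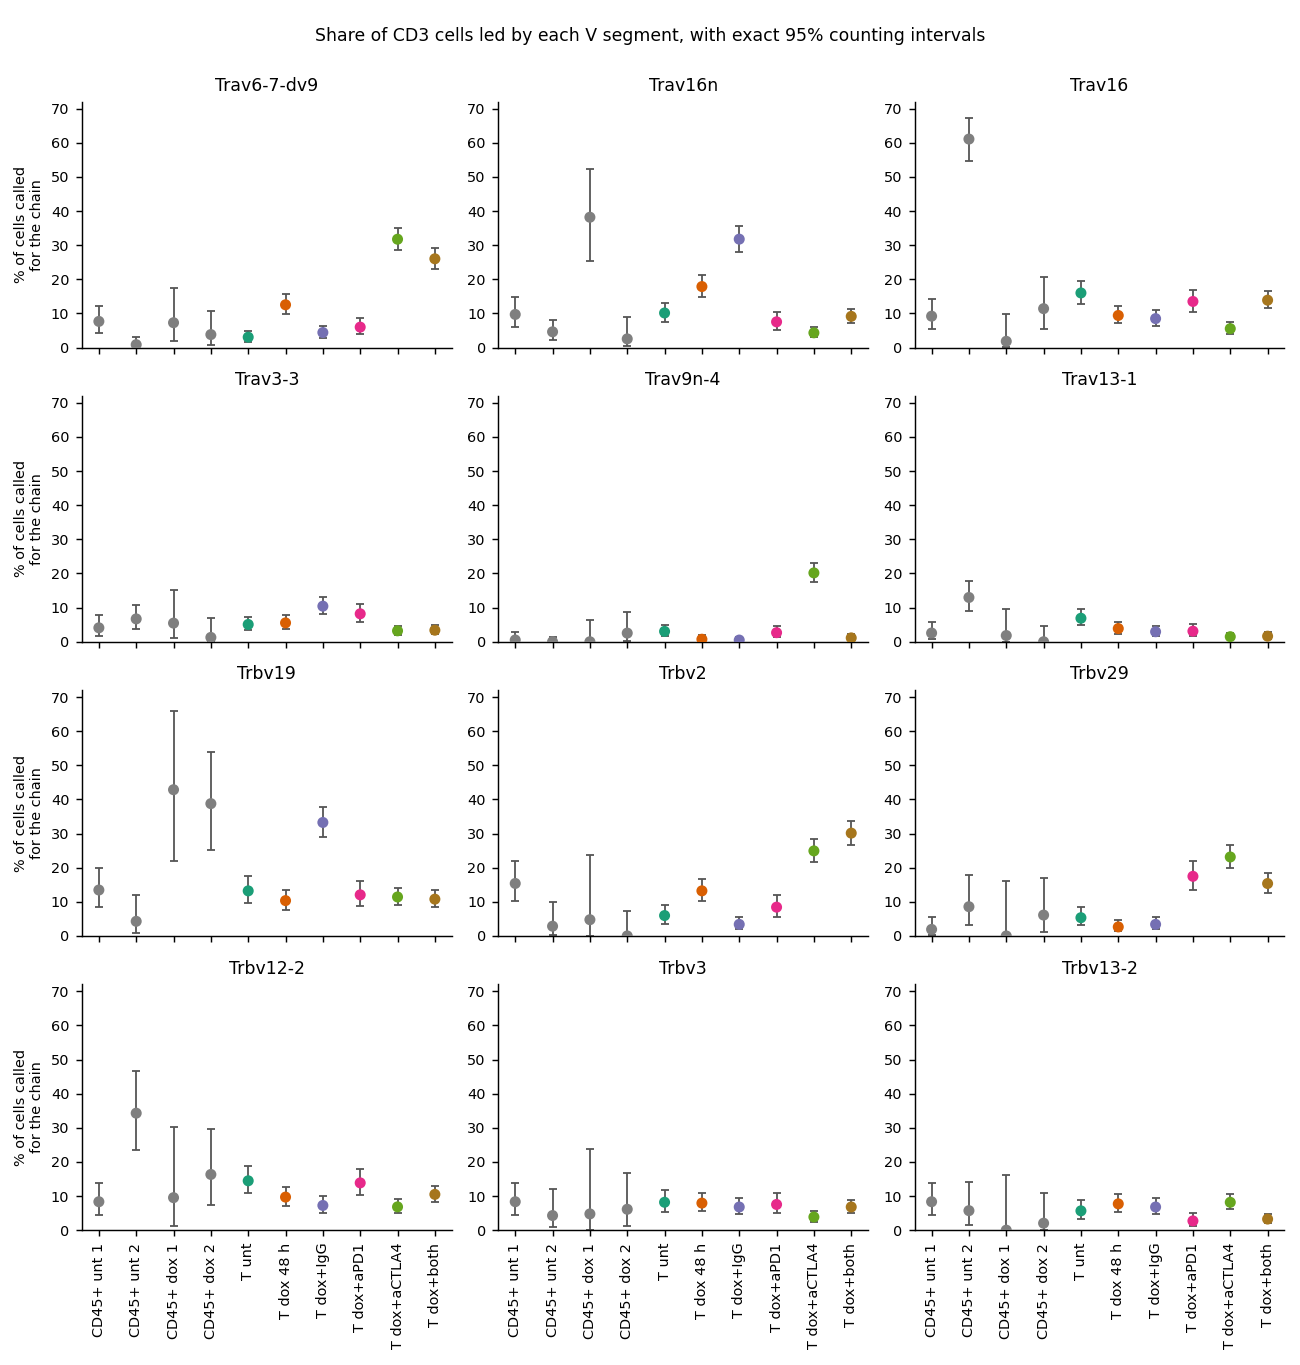
Percentage of CD3 cells called for a chain (vertical axes) that were led by each of 12 segments, for the 10 libraries; points are values and bars exact 95% counting intervals (unt, untreated; dox, doxorubicin; aPD1 and aCTLA4, the antibodies). Trav6-7-dv9 stands at 31.7% and 26% in the anti-CTLA4 and both-antibody libraries and Trbv19 at 33.3% with IgG.

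The shares above follow cells of both co-receptor classes, and these classes changed in number between libraries. CD8 cells (Cd8a RNA and no Cd4) made up 53.7, 59.2, 74.0, 52.3, 80.6 and 76.5% of T cells in the untreated, 48 h, IgG, anti-PD1, anti-CTLA4 and both-antibody T cell libraries. Within CD8 cells alone the same libraries had the highest shares of Trav6-7-dv9, Trbv29 and Trbv19, whereas the order of the other libraries changed. Trav6-7-dv9 led 35.2 and 27.3% of called CD8 cells with anti-CTLA4 and both, against 1.63 to 5.73% in the other 4 T cell libraries. Trbv29 led 23.2, 25.8 and 17.8% of CD8 cells with anti-PD1, anti-CTLA4 and both, against 2.96 to 6.91%. Trbv19 led 35.0% of CD8 cells with IgG, against 5.86 to 10.1% in the other 5.

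The class of the cells that a segment led also moved between libraries. Of the Trav6-7-dv9 cells, 40 of 68 (58.8%) were CD4 and 22.1% CD8 at 48 h, whereas 94.2% were CD8 with anti-CTLA4 and 85.6% with both. Of the Trbv19 cells, 88.4% (82.1 to 93.1) were CD8 with IgG, 75.3% (64.2 to 84.4) with anti-CTLA4 and 61.6% with both antibodies, against 35.7, 38.3 and 35.0% in the untreated, 48 h and anti-PD1 libraries. The IgG and anti-CTLA4 intervals overlapped. Among CD4 cells Trbv19 led 24.0 to 35.3% in each of the 6 T cell libraries, a range that did not single out the IgG library.

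Evenness summarised the whole use of a chain. Pielou evenness is the Shannon entropy of the called cells divided by its maximum for the 20 Trbv or 66 Trav members, so 1 means equal use. Trbv evenness was 0.912 in the untreated T cell library (standard error 0.012, counting error only), 0.866 at 48 h (0.010), 0.796 with IgG (0.017), 0.877 with anti-PD1 (0.014), 0.761 with anti-CTLA4 (0.013) and 0.773 with both (0.013). Trav evenness was 0.820, 0.792, 0.702, 0.838, 0.647 and 0.744 in the same order. Over called cells of all classes, the IgG, anti-CTLA4 and both-antibody libraries lay below the other 3 in both chains. The anti-PD1 library lay with the untreated and 48 h libraries. The closest intervals were those of Trav with both antibodies, which reached up to 0.769, and at 48 h, which reached down to 0.767. The unbiased chance that 2 called cells share a segment, which does not depend on the number of cells, gave the same division. It was 14.8, 14.6 and 14.7% for Trbv in the first 3 and 7.48, 8.52 and 8.90% in the others. For Trav it was 12.7, 15.1 and 10.1%, against 5.35, 6.70 and 4.55%. Within CD8 cells alone the same 3 libraries had the lowest evenness in both chains. For Trav the intervals of the both-antibody (0.707) and untreated (0.720) libraries overlapped there. CD4 cells, with 34 to 105 called per T cell library and chain, did not show this division. Their Trbv evenness was 0.780 with anti-CTLA4 and 0.798 with both antibodies, above 0.744 untreated. Their Trav evenness was lowest at 48 h, at 0.602.

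In the CD45+ libraries Trbv evenness was 0.862 and 0.662 untreated and 0.636 and 0.700 after doxorubicin. The means were 0.762 ± 0.141 and 0.668 ± 0.045 (SD, n = 2 each), and the difference of -0.094 was within the spread of the untreated pair (exact permutation test over libraries, two-sided, p = 0.667, where 2 against 2 cannot go below 0.3333). Trav evenness was 0.823 and 0.371 untreated and 0.588 and 0.730 after doxorubicin. The value of 0.371, from CD45+ untreated 2, was the lowest of all 10 libraries, and there the chance that 2 cells share a Trav segment was 39.6%.

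**Figure D2:**
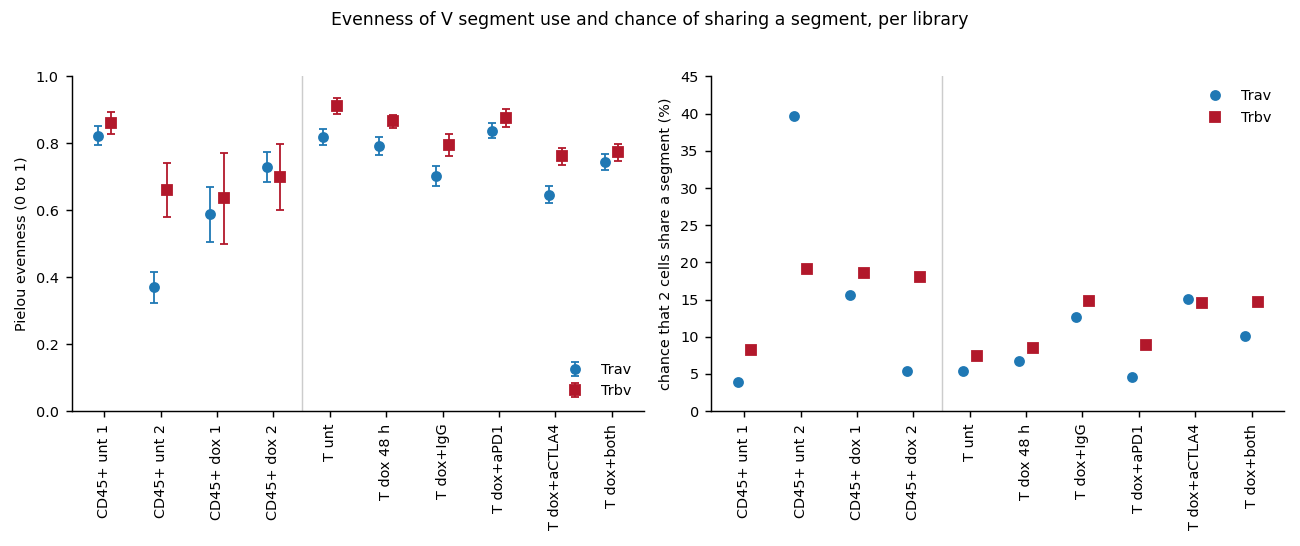
Left, Pielou evenness (0 to 1) of leading Trav (circles) and Trbv (squares) segments per library with 95% counting intervals; right, the chance in percent that 2 called cells of a library share a segment. CD45+ untreated 2 has the lowest Trav evenness, 0.371, and among T cell libraries the anti-CTLA4 library is lowest for both chains, at 0.647 and 0.761.

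CD8 and CD4 cells were compared for the same chance, pairing the classes within a library. For Trav it was 2.86 to 16.1% in CD4 cells and 4.80 to 18.5% in CD8 cells of the 6 T cell libraries, and CD8 was higher in 4 of 6. The mean difference was 4.66 percentage points ± 8.43 (SD, n = 6), and an exact sign-flip permutation test, two-sided, gave p = 0.281 (0.563 after Benjamini-Hochberg adjustment over 4 such tests). For Trbv the means were 12.92 and 13.04% in CD8 and CD4 cells, with p = 1.0 by the same exact test.

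Cells with a call for both chains show which segments were used together. The largest set was Trav6-7-dv9 with Trbv29 in the anti-CTLA4 library, in 54 of 226 such cells (23.9%, 18.5 to 29.997), of which 53 were CD8. The product of the shares of these segments would give 30.3 cells, a ratio of 1.78. The same pair was the largest in the both-antibody library, in 28 of 200 cells (14%, 9.51 to 19.6) against a product of 10.6 cells, a ratio of 2.65. Next came Trav9n-4 with Trbv29 in 26 cells with anti-CTLA4, and Trav16 with Trbv2 in 22 cells with both antibodies. In the anti-CTLA4 library 259 T cells, 28.4% of those with a Trav UMI, held more than 1 Trav segment. This share was 6.34 to 11.9% in the other T cell libraries. Among the CD45+ libraries it was 28.6% (73 cells) in untreated 2 and 6.90 to 10.9% in the others. Ties left out 99 cells with anti-CTLA4. The split of its cells between Trav6-7-dv9 and Trav9n-4 thus rests on which segment had more UMIs. Trav7-4 with Trbv2 was held by 10 cells with anti-CTLA4, 6.42 times its product.

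With IgG, 3 pairs led: Trav16n with Trbv12-2 in 12 of 117 cells, Trav3-3 with Trbv19 in 12, and Trav16n with Trbv13-3 in 10. Although Trav16n and Trbv19 were each the leading segment of that library, they met in 5 cells, below the product of 8.54. The leading pair was Trav16n with Trbv1 at 48 h (8 of 83 cells) and Trav16 with Trbv12-2 in the untreated T cell library (5 of 80). In CD45+ untreated 2, Trav16 with Trbv12-2 was held by 15 of 48 cells and with Trbv20 by 14, near their products of 15 and 11.3. In CD45+ doxorubicin 1, Trav16n with Trbv19 was held by 5 of 11 cells. Of 12 pairs held by 3 or more cells in more than 1 library, Trav16n with Trbv12-2 recurred in 4 libraries.

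Pairs held by 3 or more cells took 52.1, 53.1 and 54.5% of the cells with both calls in the IgG, anti-CTLA4 and both-antibody libraries, and 15, 19.3 and 5.26% in the untreated, 48 h and anti-PD1 libraries. These shares rise with the number of cells, which was 117, 226 and 200 against 80, 83 and 57. The unbiased chance that 2 cells share a pair was 3.32, 7.44 and 3.76% against 0.791, 1.44 and 0.627%.

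**Figure D3:**
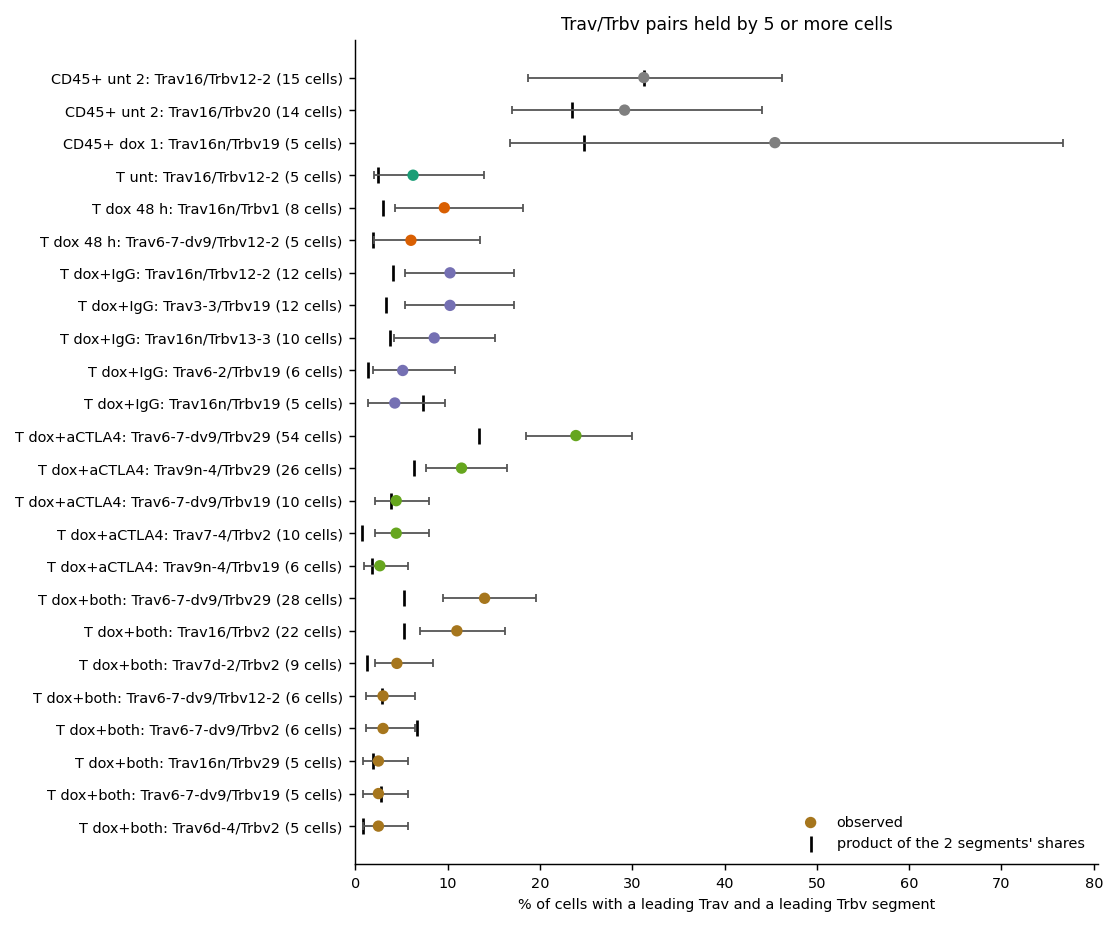
Trav/Trbv pairs held by 5 or more cells, as a percentage of cells with both calls in the library (horizontal axis); points with exact 95% intervals, and vertical ticks at the product of the shares of the segments. Trav6-7-dv9 with Trbv29 lies beyond its product in the anti-CTLA4 library (23.9%) and in the both-antibody library (14%).

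In the anti-CTLA4 library Trav9n-4 and Trav6-7-dv9 were often found in the same cells. UMIs of both were present in 183 cells, of 305 with Trav9n-4 and 380 with Trav6-7-dv9, where the product of the shares gives 41.5 cells. The genes start 415 kb apart in the alpha locus. Where a Trbv segment could be called, Trbv29 led 39 of 49 (79.6%, 65.7 to 89.8) of the cells with both, 15 of 23 with only Trav9n-4, 38 of 58 with only Trav6-7-dv9, and 64 of 544 (11.8%, 9.18 to 14.8) with neither. Cells with both were 97.8% CD8, against 77.4% of those with neither, and deeper, at a median of 16116 against 10027 UMIs. No doublet caller was run, and the part of depth and of doublets in this overlap was not tested. Their RNA held 2.86 UMIs of Mki67, a proliferation gene, per 10,000 (2.70 to 3.03), against 1.21 (1.18 to 1.25) in cells with neither. Such intervals cover the counting of UMIs only and leave out the spread between cells. Cells with only Trav9n-4, at 1.15, and with only Trav6-7-dv9, at 1.32, lay near the level of cells with neither, so the higher Mki67 level was seen only in the cells with both, which were also the deepest of the 4 groups. Pdcd1, which codes for PD1, was at 2.91 with both, 2.79 and 2.68 with only one, and 1.38 with neither. Ccr7, a lymph node homing receptor, was at 1.26 with both, 0.982 with only Trav9n-4, 1.32 with only Trav6-7-dv9 and 0.702 with neither. In CD45+ untreated 2, Trav13-1 and Trav14-1 were present together in 26 cells, against a product of 3.26. Their V exons start 9 kb apart. These cells had a median of 26202.5 UMIs, against 16235 in cells with neither, and the part of depth was not tested.

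The state of the cells was then read for every segment that led at least 40 CD8 cells of a T cell library, 25 combinations in all, each against the other called CD8 cells of that library. The combinations share cells, and a segment that is high lowers the ratio of the others in its library, so they are not independent. Intervals of these ratios cover the counting of UMIs only. They leave out the spread between cells, and each combination comes from 1 library. Below, higher and lower are thus set by counting error alone. No state gene moved one way in all 25 combinations. Pdcd1 was higher, with an interval of the ratio above 1, in 11 of 25 and lower in 4, at a median ratio of 1.21. Gzmb, a cytotoxic granule protease, was higher in 9 and lower in 11, at a median of 0.923. Ccr7 was higher in 10 and lower in 9, Mki67 higher in 7 and lower in 12, and Foxp3, the regulatory T cell factor, higher in 6 and lower in 5.

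In 10 of the 25 the segment was also one of up to 3 per library that led at least 2 times the median share of the other T cell libraries, the rule by which segments were named. There Pdcd1 was higher in 8 and lower in 0, and Gzmb was higher in 0 and lower in 8. Trbv19 with IgG was 1 of the other 15. It also led at least 2 times that median share but was left out by the limit of 3 per library. The 0 for higher Gzmb therefore depends on that limit. Trbv19 with IgG had the highest Gzmb ratio of the 25, with 15.4 UMIs per 10,000 (14.8 to 16.0) against 3.88 (3.69 to 4.09), a ratio of 3.96 (3.71 to 4.23). Its cells were shallower than those they were compared with, at a median of 8451 against 12802 UMIs, and the part of depth was not tested. The Gzmb ratio of Trbv19 was 0.922 (0.837 to 1.01) with anti-CTLA4 and 1.24 (1.10 to 1.40) with both antibodies.

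The highest Pdcd1 ratio was that of Trav16n with IgG, at 2.25 against 1.21 UMIs per 10,000, a ratio of 1.86 (1.64 to 2.10), and the lowest was that of Trbv12-2 with both antibodies, at 0.577 (0.477 to 0.692). For Trbv29 the Gzmb ratio was 1.01 (0.953 to 1.06) with anti-CTLA4 and 1.11 (0.967 to 1.27) with anti-PD1, and with both antibodies it was the lowest of the 25, 0.342 (0.295 to 0.393). The Ccr7 ratio of Trbv29 was 2.55 with anti-CTLA4 and 2.47 with anti-PD1 but 0.706 (0.558 to 0.884) with both antibodies.

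**Figure D4:**
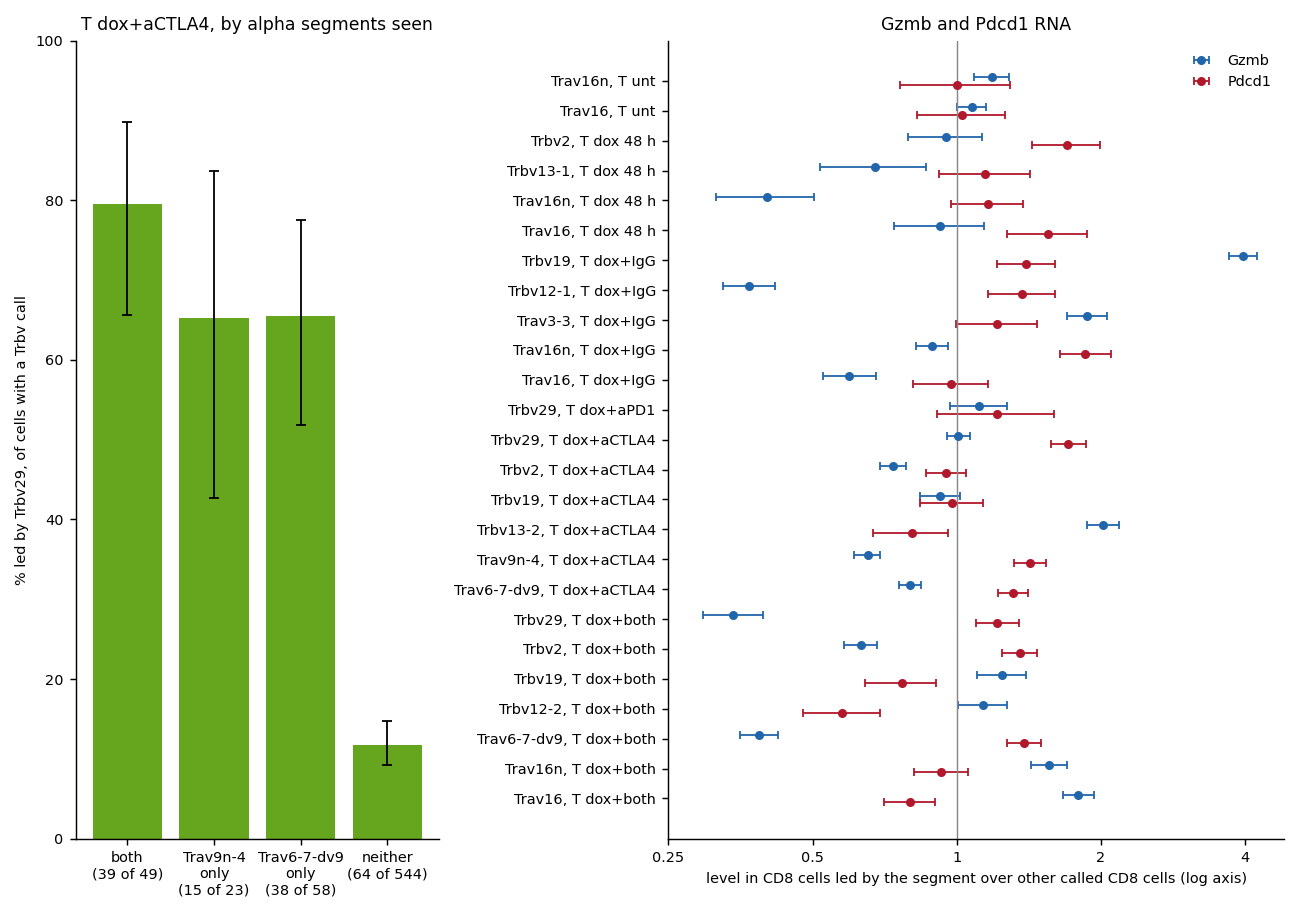
Left, percentage of cells led by Trbv29 among those with a Trbv call in the anti-CTLA4 library, by the alpha segments present; right, ratio of Gzmb and of Pdcd1 RNA in CD8 cells led by a segment over other called CD8 cells of the library (log axis), for the 25 combinations with at least 40 cells. Bars and lines are exact 95% counting intervals; Pdcd1 lies between 0.577 and 1.86 and Gzmb between 0.342 and 3.96.

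Use by co-receptor class was tested over libraries, with summed counts of CD4, CD8 and double-negative (neither Cd4 nor Cd8a RNA) cells and the library as a block. Although the T cell libraries had been sorted for CD4 or CD8, 7.65 to 28.2% of their T cells were double-negative by RNA. In such sums, more cells with a segment and more RNA per cell cannot be told apart. At the expression filter, 4 of 90 members could be tested, and 2 were called higher in CD8 cells. The background in this comparison was 23.1% of 11893 genes called. Trgv2 had 0.0286 to 0.158 UMIs per 10,000 in CD4 cells and 0.151 to 0.520 in CD8 cells of the 10 libraries, and CD8 was higher in 10 of 10. Its log2 change was 2.16 (SE 0.27, adjusted p = 5.416e-06, edgeR quasi-likelihood test with Benjamini-Hochberg adjustment over all genes tested). Trav16 changed by 2.25 (SE 0.41, edgeR adjusted p = 0.0003438), higher in CD8 cells of 10 of 10 libraries. Trbv19 was at -0.99 (SE 0.42, edgeR adjusted p = 0.0983) and passed in the 6 T cell libraries alone, at -1.37 (adjusted p = 0.0290). Trav6-7-dv9 was at -0.37 (SE 0.64, edgeR adjusted p = 0.748).

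Most segments were too sparse for that filter, and a fit without it, in which 15.3% of 23044 genes were called, called 9 of 90 members. In it 7 were higher in CD8 cells and 2 in CD4 cells. Trbv29 stood out by size, with 447 UMIs in CD8 cells of 9 libraries and 1 UMI in CD4 cells, or 2.42 against 0.0271 CPM (UMIs scaled to the total of the class), a ratio of 89.3 (exact interval 16.0 to 3537). That ratio pools the libraries and divides by a CD4 level under the floor of 3 counts, 0.0814 CPM. Of the 447 UMIs, 209 lay in the anti-CTLA4, 127 in the both-antibody and 57 in the anti-PD1 library. Each other library held 0 to 17. Trbv12-1 had 132 UMIs against 3, Trbv14 64 against 2, and Trbv17 36 against 0, at least 2.40-fold higher than the floor of 3 counts over the class. Trav16n had 999 against 31, a ratio of 6.44 (4.51 to 9.53). On the CD4 side, Trbv16 had 54 UMIs in CD4 cells and 95 in CD8 cells, a CPM ratio of 0.352 (0.249 to 0.501), and Trbv26 had 18 and 20, a ratio of 0.222 (0.112 to 0.445). The log2 changes were 5.57 for Trbv29, -1.38 for Trbv16 and -1.61 for Trbv26, with edgeR adjusted p of 1.669e-07, 0.0208 and 0.0400.

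In the double-negative class, Trbv19 and Trgv2 were lower than the mean of the CD4 and CD8 classes, and the delta segment Trdv4 was higher. The background was 45.8% of 11893 genes called, and 2 of the 4 members tested were called. Trbv19 changed by -1.95 (SE 0.52, edgeR adjusted p = 0.0042) and Trgv2 by -0.97 (SE 0.26, edgeR adjusted p = 0.0050) against the mean of the CD4 and CD8 classes. Over all libraries Trgv2 stood at the same level in double-negative as in CD4 cells, 7.36 CPM in each, against 30.4 in CD8 cells. Both calls were lost when T cells needed 4 Cd3 UMIs, with edgeR adjusted p of 0.0567 and 0.301, and without cells that held myeloid or epithelial RNA, with 0.0662 and 0.323. CD45+ doxorubicin 1 had 26 double-negative cells and gave no sum for this class.

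Trdv4 had 40 UMIs in double-negative, 8 in CD4 and 10 in CD8 cells, and Trav11, the alpha segment of invariant natural killer T cells, 10, 0 and 2. Without the expression filter both were called higher in double-negative cells, Trdv4 by 2.85 (edgeR adjusted p = 0.0018) and Trav11 by 3.59 (edgeR adjusted p = 0.0109). Of the 40 Trdv4 UMIs, 16 lay in CD45+ untreated 2 and 8 in CD45+ doxorubicin 2. Of 113 Trdv4 UMIs in all barcodes, 58 lay in T cells as taken here. Trdv1 was spread as 10, 8 and 41 UMIs over the double-negative, CD4 and CD8 classes, a CPM ratio of CD8 over CD4 cells of 1.02 (0.474 to 2.53). Trdv2-2 had 20 UMIs in T cells and Trav1, the segment of mucosa-associated invariant T cells, 17, too few to compare libraries.

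Trgv2 alone gave 6521 of the 19470 V segment UMIs in T cells. It lies on the minus strand of chromosome 13, 29.0 kb from Tcrg-C2, the constant gene to which it can be joined, and gamma genes can be transcribed in alpha beta T cells too. Tcrg-C2 followed the same order over classes, with 0.436 to 1.16 UMIs per 10,000 in CD8 cells and 0.0356 to 0.328 in CD4 cells. Over T cells of all classes, a Trgv2 UMI was found in 11.7, 12.8, 22.7, 12.4, 22.5 and 26.3% of cells of the untreated, 48 h, IgG, anti-PD1, anti-CTLA4 and both-antibody T cell libraries. Thinned to 3000 UMIs per cell, these were 4.50, 6.39, 11.0, 6.49, 7.60 and 9.98%, with 71 to 418 shallower cells per library left out. The CD8 share of T cells, given above, was also higher in the IgG, anti-CTLA4 and both-antibody libraries, and within CD8 cells Trgv2 stood at 0.206, 0.227, 0.448, 0.255, 0.273 and 0.444 UMIs per 10,000.

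**Figure D5:**
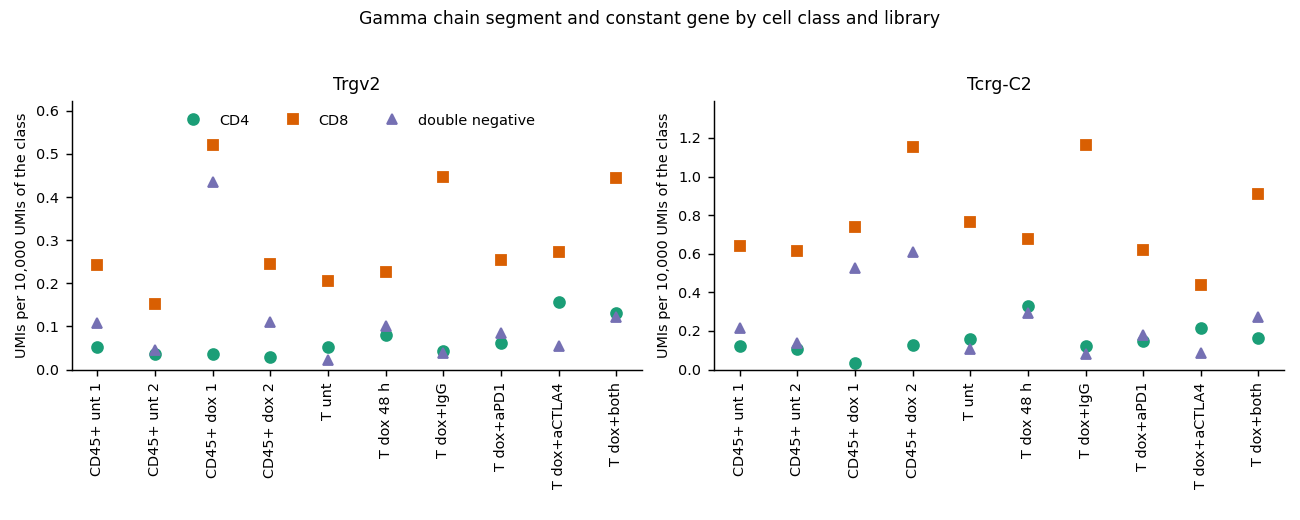
UMIs of Trgv2 (left) and of its neighbour Tcrg-C2 (right) per 10,000 UMIs of CD4 (circles), CD8 (squares) and double-negative (triangles) T cells in the 10 libraries. The CD8 squares lie above the CD4 circles in each library, from 0.151 to 0.520 against 0.0286 to 0.158 for Trgv2.

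The other genes of the receptor pathway were read from a list of 22 constant, signalling, recombination and lineage genes, of which 17 could be tested. In CD8 against CD4 cells 3 were called higher and 2 lower, a share near the 23.1% of all genes called. Cd8b1, the partner chain of Cd8a, was higher by 6.04 on the log2 scale, Tcrg-C4 by 3.16 and Tcrg-C2 by 2.36, while Cd247, the zeta chain, fell by 0.63 and the adaptor Lcp2 fell by 0.54 (edgeR adjusted p from 1.278e-09 to 0.0040). In double-negative cells 3 were higher, among them the delta constant gene Trdc by 2.54 and Sox13, a transcription factor of gamma delta cells, by 2.05. There 11 were lower, among them Zap70 at -1.23, Lat at -0.87 and Trac at -0.93, where 45.8% of all genes were called. The 11 fell to 5 of 16 tested when T cells needed 4 Cd3 UMIs, with 22.7% of all genes called, and to 3 of 15 without cells that held myeloid or epithelial RNA, with 35.8%.

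In the CD45+ libraries, doxorubicin was compared with untreated over the summed T cells. None of 15 members tested was called by edgeR, where the background was 0.00% of 13161 genes, and 1 member had an unadjusted p under 0.05 against 864 of all genes. DESeq2 called 72 genes, 0 of them among 22 members tested. The member with the lowest p was Trav16d-dv11, at a log2 change of 4.84 (SE 1.02, edgeR adjusted p = 0.724). Trbv19 was at 2.33 (SE 1.07), Trav16n at 3.87 (SE 1.82) and Trav16 at -3.08 (SE 1.39), each with an edgeR adjusted p over 0.75. By the shares above, the doxorubicin libraries differed widely for Trav16n and the untreated libraries for Trav16. For Trbv19 both doxorubicin libraries lay above both untreated ones. Trgv2 was at 0.72 (SE 0.43, edgeR adjusted p = 0.789).

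Between T cell libraries, members with at least 20 UMIs in a pair of libraries were counted where CPM differed by 2-fold or more. With 1 library per group this has no replicate check. At 48 h against untreated, 11 of 34 members were past 2-fold, against 11.0% of all genes. For IgG against 48 h it was 13 of 34, against 11.0%. For anti-PD1, anti-CTLA4 and both antibodies, which share the IgG library as their comparator, it was 12 of 32 against 9.89%, 16 of 38 against 6.61% and 14 of 42 against 13.8%. The part of counting error, which is larger for sparse genes, was not tested. With at least 50 UMIs the counts were 4 of 16, 6 of 15, 7 of 14, 7 of 15 and 8 of 15, against 8.25, 8.51, 7.32, 4.35 and 10.4% of genes.

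At 48 h against untreated, Trav6-7-dv9 (86 against 24 UMIs) and Trbv2 (83 against 24) were 2.96 and 2.85 times as high, and Trav9n-4 (4 against 19) was at a ratio of 0.174. For IgG against 48 h, Trav16n (505 against 144) and Trbv19 (185 against 52) were at ratios of 4.26 (3.53 to 5.17) and 4.32 (3.16 to 6.00), and Trbv13-1 fell to 0.229 of its level. Against IgG, anti-CTLA4 had the largest ratio of any member counted, 134 (52.0 to 493) for Trav9n-4, from 641 against 4 UMIs. Trbv2 and Trbv29 were higher than in the IgG library with each antibody arm: Trbv2 by ratios of 2.45, 11.6 and 14.7, and Trbv29 by 3.95, 10.7 and 7.16 with anti-PD1, anti-CTLA4 and both. Trav16n was lower in the same 3 arms, at 0.117, 0.109 and 0.250.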

How the data were processed

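The deposited counts were whole UMI counts per gene and barcode made by the authors with Cell Ranger 6.0.0, per the file headers, on mouse build GRCm38/mm10, per the submitters' processing notes. The annotation release is not given in the sources used here. The matrices carry no gene names, and these were taken in order from the authors' table of pooled tumour cells (correlation of log gene totals 0.954 to 0.984, at most 0.354 when shifted). Barcodes with 500 UMIs, 200 genes and under 20% mitochondrial RNA were kept, 1480 to 7623 of 1541 to 8529 per library, with 16908180 to 93748407 UMIs per library. No doublet caller was run, and no cell profile was shared between libraries (0 found). Members and gene lists were chosen with earlier results of these data known. Counts were summed per library and class (30 cells or more) and tested with edgeR 4.0.16 (R 4.3.3, TMM factors, filterByExpr, quasi-likelihood test, adjusted p under 0.05), with DESeq2 1.42.0 as an alternative, after tests on simulated counts. Exact intervals used scipy 1.17.1, and the exact permutation tests went through every arrangement. Replicate numbers of the CD45+ libraries name libraries and are not stated to pair them. Named segments were the 6 leading per chain, the leading 2 of each library, called segments, those at 2 or more times the median of the other T cell libraries with 20 cells, the leading pairs, the gamma and delta members, Trav11 and Trav1. Trbv14, Trbv16, Trbv17 and Trbv26 came from the fit without the expression filter, and Trav7-4, Trav14-1, Trav16d-dv11 and Trbv13-3 were chosen after their values were seen, as was the count over all segments with 40 CD8 cells. The 12 columns of a bulk table that match no sample were not used. Class signs need Cd4 or Cd8a RNA, so double-negative cells include cells whose co-receptor RNA was not captured. Results for some genes of the lists are not reported here.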

Additional observations from a re-analysis of the deposited data

Results flagged for a closer look

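V segment RNA was also present in the pooled table of 4016 cells labelled as tumour cells, from untreated and doxorubicin-treated tumours, which no comparison above uses because its cells are not tied to a sample. It held 461 UMIs of 62 of the 90 members, above the limit of 3 that a count of 0 allows, in 225 cells. Of these 461 UMIs, 187 were Trgv2. T cells by the same Cd3 rule numbered 457 in that table, and 196 of them held a member.

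The Trbv19 share moved in opposite directions in the sorts. Over the CD45+ libraries it was 31.9 percentage points higher after doxorubicin (8.87% untreated, 40.8% treated, both treated libraries above both untreated ones), whereas in the T cell sort it was -2.86 points at 48 h (13.2% and 10.4%). The CD45+ shares rest on 52 Trbv19 cells in all. Trbv13-2 went the other way, at -6.0 points over the CD45+ libraries (7.02% and 1.02%, 18 cells in all) and 2.05 points in the T cell sort (5.66% and 7.71%). The difference between sorts was not tested, since the T cell sort has 1 library per group.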

How the results depend on the processing

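For CD8 against CD4 cells, the 2 calls among 4 members tested stood beside 23.1% of all genes called. They became 9 of 61 with DESeq2 (24.1% of genes) and 9 of 90 without the expression filter (15.3%). They became 4 of 6 in the 6 T cell libraries alone (23.4%) and 4 of 5 when a class needed 2 UMIs (23.4%). Alternatives added after seeing the data gave 1 of 1 in the 4 CD45+ libraries (0.986%) and 4 of 6 without cells that held other lineages' RNA (37.3%). Leaving out 1 library gave 2 to 4 of 4 to 6 tested (19.2 to 25.3% of genes), the 4 without either CD45+ doxorubicin library. The 2 calls of double-negative cells, of 4 tested (45.8% of genes), became 5 of 67 with DESeq2 (42%) and 6 of 90 without the filter (27.1%). They became 0 of 6 with 4 Cd3 UMIs (22.7%) and 0 of 6 without other lineages' RNA (35.8%). Leaving out 1 library gave 2 each time, of 4 to 6 tested (39.2 to 52.4%). Fewer tested genes stand behind each filtered count, and for the other changes the cause was not tested. In the CD45+ libraries the count of called members was 0 under each alternative run, from 0 to 0 on leaving out 1 library. The evenness difference of -0.094 there ranged from -0.194 to 0.00603 on leaving out 1 library and reversed to 0.00603 without CD45+ untreated 1 (exact permutation p = 1.0); the other changes were within 1 SD. Requiring 2 UMIs of the leading segment lowered mean evenness over the T cell libraries from 0.831 to 0.663 for Trbv and from 0.757 to 0.588 for Trav, where fewer cells were called. The counts past 2-fold of 11, 13, 12, 16 and 14 became 4, 6, 7, 7 and 8 with 50 UMIs. Of single shares, 51 stayed within their interval and 17 moved. Requiring 2 UMIs of the leading segment moved 12 shares and left 5 within their interval. All 20 pair values stayed, but pairs were rerun only with 4 Cd3 UMIs and without other lineages' RNA.

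With the replicate block, 0 members were called in the CD45+ libraries and the evenness difference was -0.094, from differences of -0.226 and 0.0379 within the numbers, where 2 pairs cannot go below an exact p of 0.5. Same-numbered libraries deviated with a correlation of 0.394 across 13161 genes, from 2 pairs only.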

Other observations

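Among CD4 cells, the alpha segment Trav6-7-dv9 led 38.1% of called cells (40 of 105) in the 48 h T cell library and 1.92 to 14.3% in the other 5 T cell libraries. All 5 cells of that library that paired it with Trbv12-2 were outside the CD8 class (0 CD8 cells), whereas 53 of the 54 cells that paired it with Trbv29 in the anti-CTLA4 library were CD8. Trbv29 led no CD4 cell in 9 of 10 libraries and 1 of 47 in the anti-PD1 library. Only 4, 8 and 9 CD4 cells had a Trbv call in CD45+ untreated 2, doxorubicin 1 and doxorubicin 2, too few to read a 0. The other libraries had 34 to 75.

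The gamma segments that the gene table names Tcrg-V, outside the rule used here, had far fewer UMIs in T cells than the 6521 of Trgv2: 209 for Tcrg-V1, 105 for Tcrg-V3, 51 for Tcrg-V6, 44 for Tcrg-V4, 30 for Tcrg-V7 and 7 for Tcrg-V5. Drawn down to equal numbers of cells, the count of different Trav segments in 55 cells was lowest in CD45+ untreated 2, at 10.2, and 19.4 to 27.5 in the 6 T cell libraries.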
